A study of Homo sapiens with 20 samples.

Results

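MTRNR2L12, MTRNR2L8 and MTRNR2L1 are nuclear genes that resemble part of the mitochondrial genome, and they were examined here in PAR-CLIP libraries of the RNA-binding protein IGF2BP3. They are 3 of the 19962 genes in the count table, listed there as ENSG00000269028, ENSG00000255823 and ENSG00000256618. They were selected on their share of counts, which was larger in the control IgG libraries than in the anti-IGF2BP3 libraries, so that difference is described below and not tested. The comparisons between conditions within the anti-IGF2BP3 libraries did not enter the choice.

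All groups were HCT116, a line from a human colorectal carcinoma, with the genotype Tet-OsTIR1-PURO (a conditional OsTIR1 gene). In PAR-CLIP the uridine analogue 4-thiouridine is built into RNA, ultraviolet light crosslinks it to bound protein, and crosslinked sites read as T-to-C conversions. All cells had 100 µM 4-thiouridine for 15 h before crosslinking at 365 nm (0.15 J/cm2). From each of 5 conditions came 3 anti-IGF2BP3 libraries and 1 control IgG library, 20 in all. The conditions were PBS for 2 h, sodium arsenite at 250 µM for 2 h (arsenate in some of the labels), DMSO for 4 h, and tunicamycin (TM) at 5 µg/mL for 1 h or 4 h. Plates were pooled for each condition, and the labels do not say that libraries of a group came from separate cultures, so p-values measure the spread between libraries, which may be technical. By their names the libraries form 3 sets: all PBS and arsenite libraries, replicates 1 and 2 of DMSO and TM, and replicate 3 of DMSO and TM together with the IgG libraries of those conditions. Library totals over the genes of the table ran from 130478 to 1568406 counts with anti-IGF2BP3 and from 5981 to 17503 with IgG. The files pair no other identifier with a gene name, so the epithelial markers of the line were not checked.

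Mitochondrial ribosomes contain a 16S rRNA encoded by the mitochondrial DNA. Within that rRNA lies a short reading frame for humanin, a peptide studied for its protection of cells against apoptosis. Stretches of mitochondrial DNA have been copied into the nuclear genome during evolution, and the MTRNR2L genes are such copies of the 16S rRNA gene that keep humanin-like reading frames. IGF2BP3 itself is an oncofetal protein that binds mRNAs through KH domains and affects their stability and translation.

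The genes lie on different chromosomes. In RefSeq on GRCh38, where all 13 MTRNR2L genes are listed as pseudogenes, MTRNR2L12 spans chr3:96617186-96618223 (1038 bases), MTRNR2L8 spans chr11:10507887-10509176 (1290 bases) and MTRNR2L1 spans chr17:22523415-22524663 (1249 bases). The authors' clusters, stretches of overlapping reads with conversions called separately in each library, showed which parts of these genes were recovered. All 518 distinct clusters that fell inside RefSeq windows around gene starts had the same letters at the same positions, so the clusters and RefSeq share coordinates. The stretches below are shown because they held most cluster reads of MTRNR2L12, were shared between MTRNR2L12 and MTRNR2L8, or matched the part of the 16S rRNA gene known to hold the humanin reading frame. Each merges overlapping clusters of a gene, reads 5′ to 3′ on the transcribed strand, and has in capitals the bases that differ from the matching mitochondrial sequence, as that sequence appears in the authors' own clusters on the mitochondrial chromosome.
MTRNR2L12, chr3:96617455-96617547, minus strand: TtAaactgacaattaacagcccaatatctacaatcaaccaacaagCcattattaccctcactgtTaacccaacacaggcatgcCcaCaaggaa
MTRNR2L12, chr3:96617282-96617350, minus strand: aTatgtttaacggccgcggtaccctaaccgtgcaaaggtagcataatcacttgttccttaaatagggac
MTRNR2L12, chr3:96617562-96617616, minus strand: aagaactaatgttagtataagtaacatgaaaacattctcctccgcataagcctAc
MTRNR2L8, chr11:10508515-10508563, minus strand: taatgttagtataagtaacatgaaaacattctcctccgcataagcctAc
MTRNR2L8, chr11:10508153-10508191, minus strand: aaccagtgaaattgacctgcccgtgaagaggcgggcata

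The first stretch of MTRNR2L12 matched positions 2359 to 2451 of the mitochondrial chromosome, inside the 16S rRNA gene, with 6 differences in 93 bases. It held 1195 reads with a cluster in each of the 15 anti-IGF2BP3 libraries, which was 46.2% of the cluster reads of this gene. The next stretch had 1 difference in 69 bases and 989 reads from 14 libraries. These 2 stretches held most of the cluster reads placed at MTRNR2L12, and whether those reads came from this gene was not tested. The 55-base stretch of MTRNR2L12 and the 49-base stretch of MTRNR2L8 both carry 1 difference, at the same mitochondrial position. Of the 57 clusters at MTRNR2L12, 11 had a sequence found without change in the regions of MTRNR2L8, and 12 of the 45 clusters at MTRNR2L8 had one found in those of MTRNR2L12. MTRNR2L1 shared no whole cluster sequence with the other two. Reads in the shared stretches cannot be told apart between the genes.

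The 39-base stretch of MTRNR2L8 had no difference and matched positions 2668 to 2706, in the part of the 16S rRNA gene that holds the humanin reading frame. It held 39 reads from 5 libraries.

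All clusters at a gene lay on 1 strand, which was taken as the strand of that gene. The anti-IGF2BP3 libraries held 57 clusters with 2586 reads at MTRNR2L12, 45 with 2191 reads at MTRNR2L8 and 26 with 703 reads at MTRNR2L1, and each gene had at least 1 in every one of the 15 libraries. PBS replicate 2, the shallowest library, held 3 of these clusters, and TM 4 h replicate 3, the deepest, held 18. Compared base by base with the mitochondrial sequence, 63 of the 128 clusters had no difference, 36 had 1, 15 had 2 and 14 had 3 or more. By reads the shares were 29.3%, 29.5%, 15.3% and 25.8%. The sequence of the 63 clusters with no difference does not tell the nuclear copy from the mitochondrial one. For MTRNR2L12 the clusters with 3 or more differences held 35.6% of reads and for MTRNR2L1 2.99%. The 21.6% for MTRNR2L8 came from a single cluster in TM 4 h replicate 3.

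Clusters were also found upstream of the 3 genes, but not downstream. Within 400 bases upstream of MTRNR2L8 the 15 libraries held 57 further clusters with 5962 reads, more than the 2191 reads in the gene. Upstream of MTRNR2L12 there were 21 with 765 reads and upstream of MTRNR2L1 9 with 88 reads, while downstream of all 3 genes there were none. The cluster that crossed the 5′ end of MTRNR2L8 matched mitochondrial positions 1557 to 1696, which run from the 12S rRNA gene (RNR1) through the valine tRNA gene into the 16S rRNA gene. Of the 10 other MTRNR2L genes in RefSeq, 5 had a cluster in an anti-IGF2BP3 library and none had one in an IgG library. The most reads among these were the 174 at MTRNR2L10, from 14 clusters in 9 libraries, followed by 84 at MTRNR2L4 and 69 at MTRNR2L2.

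The IgG libraries had counts at these genes but hardly any clusters. Their only cluster inside the 3 genes was 1 of 8 reads at MTRNR2L1, in the list attached to the PBS IgG sample. Upstream of MTRNR2L8 they held 3 clusters with 49 reads, in 3 libraries. The cluster lists of the PBS and arsenite IgG samples carry names the other way round, so no difference between those lists is drawn, and the PBS and arsenite IgG levels below follow the names of the count columns. The cluster lists hold no cluster under 2 reads or 2 conversion locations, which bears on libraries as shallow as these.

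Levels are given in CPM, the count scaled to a library total of 1000000 over the genes of the table. With IgG, MTRNR2L12 had 88 counts or 5028 CPM in PBS, 80 counts or 8542 CPM under arsenite, 27 counts or 3433 CPM in DMSO, and 21 counts or 3511 CPM after 1 h and 50 counts or 4332 CPM after 4 h of TM. In the 15 anti-IGF2BP3 libraries it ran from 215 to 428 CPM with a median of 323 CPM. No IgG value was near that range. MTRNR2L8 had 4056, 7581, 3052, 2341 and 2599 CPM with IgG in the same order of conditions, and 135 to 311 CPM with a median of 234 CPM with anti-IGF2BP3. MTRNR2L1, the least abundant, had 1885, 3203, 636, 1003 and 1300 CPM with IgG, the DMSO value from 5 counts. With anti-IGF2BP3 it ran from 54.6 to 164 CPM with a median of 99.4 CPM.

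The 3 genes together made up 1.097% of IgG counts in PBS (exact 95% interval 0.948 to 1.26), 1.93% under arsenite (1.66 to 2.23), 0.712% in DMSO (0.538 to 0.924), 0.686% at TM 1 h (0.492 to 0.929) and 0.823% at TM 4 h (0.666 to 1.01). These intervals cover counting error only. In the anti-IGF2BP3 libraries the same sum was 0.0647 ± 0.0128% (SD, n = 15). The IgG share over the mean anti-IGF2BP3 share was highest for arsenite at 41.3, followed by PBS at 16.6, TM 4 h at 11.2, DMSO at 10.9 and TM 1 h at 9.58. Were the PBS and arsenite IgG libraries exchanged, as the names of their cluster lists have it, the ratio would be 29.3 for PBS and 23.5 for arsenite, the opposite order. With library sizes scaled by TMM factors the mean IgG share was 0.686% and the mean anti-IGF2BP3 share 0.0749%, so that their ratio was 9.16 in place of 16.2. In raw counts no IgG library stood above all anti-IGF2BP3 libraries of its condition. The summed count was 192 with IgG against 284, 93 and 241 with anti-IGF2BP3 in PBS, and 181 against 170, 330 and 509 under arsenite. In DMSO it was 56 against 262, 618 and 805, and every anti-IGF2BP3 library of DMSO and TM had more counts than the IgG library of its condition, which held 41 counts at TM 1 h and 95 at TM 4 h. In the 5 IgG libraries MTRNR2L12 ranked between 1st and 7th among all genes by count, MTRNR2L8 between 2nd and 14th and MTRNR2L1 between 12th and 177th. Their best ranks in an anti-IGF2BP3 library were 392, 647 and 1523.

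**Figure D1:**
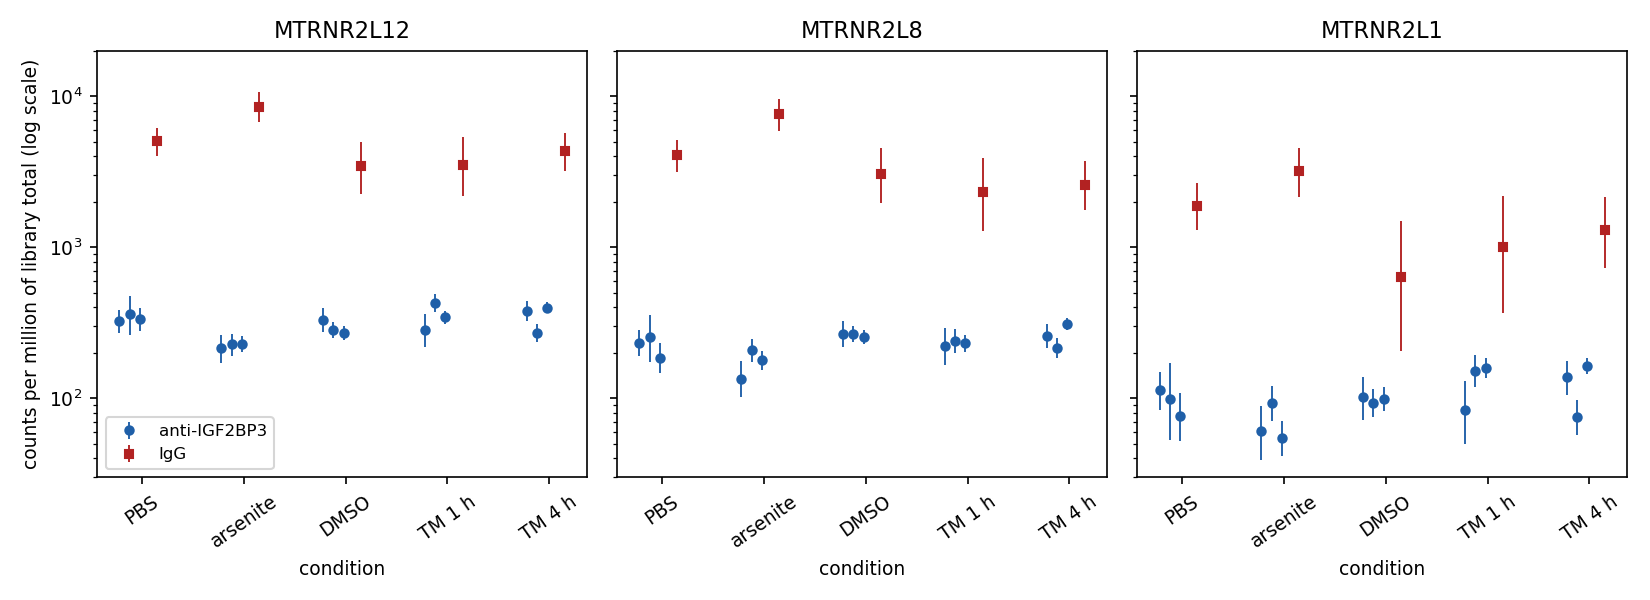
CPM (log scale) for each gene in each library, by condition; circles are anti-IGF2BP3 libraries, squares IgG libraries, and bars exact 95% binomial intervals, which cover counting error only. Every IgG square lies above every anti-IGF2BP3 circle of the same gene.

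Among the 73 genes with at least 50 counts in the pooled IgG libraries, the 3 genes held places 3 to 5 by the ratio of pooled IgG CPM to pooled anti-IGF2BP3 CPM. The cut is on IgG counts, which also entered the choice of the 3 genes, so these places hold only among the 73. Under the cut, ENSG00000269113_4 had 689 CPM with IgG (36 counts) against 3.70 CPM with anti-IGF2BP3 (38 counts). The ratios were 16.8 for MTRNR2L8, 16.4 for MTRNR2L12 and 15.5 for MTRNR2L1, while the median of the 73 genes was 0.937. ENSG00000148488_17 and ENSG00000178971_16, which the files do not name, stood above them at 35.5 and 24.0. The next of the 73 below the MTRNR2L genes had 4.54. A larger share with IgG was not particular to the nuclear copies. Mitochondrial 16S rRNA clusters took 0.299 to 0.920% of cluster reads with anti-IGF2BP3. With IgG they took more in every list except that of TM 1 h, which had none, and up to 12.9% (356 reads). The lists attached to the PBS, DMSO and TM 4 h IgG samples held 2 such clusters each, with 44, 38 and 64 reads. Their shares therefore rest on few clusters.

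**Figure D2:**
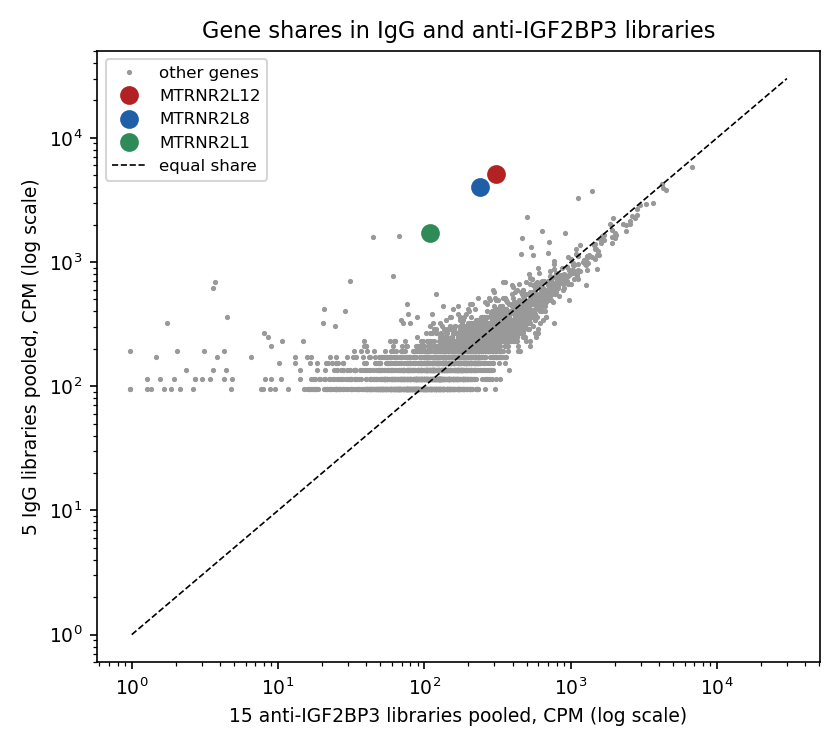
Share of counts in the 5 pooled IgG libraries against the 15 pooled anti-IGF2BP3 libraries, in CPM on log axes, for the 3110 genes with at least 5 IgG counts; each point is a gene and the dashed line marks equal shares. The 3 MTRNR2L genes lie above the line by factors of 15.5 to 16.8, which is the contrast on which they were chosen.

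The proportions of the 3 genes to one another were alike with both antibodies. MTRNR2L12 supplied 48.4 ± 3.54% of their summed counts with IgG (SD, n = 5) and 48.3 ± 3.58% with anti-IGF2BP3 (SD, n = 15). MTRNR2L8 supplied 37.0 ± 4.38% and 35.9 ± 3.70%, and MTRNR2L1 14.6 ± 3.32% and 15.8 ± 2.68%. For each gene the means differed by less than 1 SD of either set. Within the anti-IGF2BP3 libraries the ratio of MTRNR2L12 to MTRNR2L8 was higher in all TM libraries than in all DMSO libraries. On the log2 scale the DMSO libraries had 0.16 ± 0.13, the TM 1 h libraries 0.58 ± 0.24 and the TM 4 h libraries 0.41 ± 0.11 (SD, n = 3). The two-sided exact permutation p was 0.1 for each, the smallest that 3 against 3 libraries allow, and 0.6 after adjustment over the 12 ratio comparisons made.

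MTRNR2L12 was lower under arsenite in the anti-IGF2BP3 libraries, and the other 2 genes did not pass the test on their own. It had 323, 360 and 335 CPM in the PBS libraries and 215, 228 and 229 CPM in the arsenite libraries. All arsenite values lay below all PBS values. The log2 fold change was -0.55 (SE 0.12, edgeR quasi-likelihood test with Benjamini-Hochberg adjustment, adjusted p 8.1e-05), on counts scaled by TMM factors. Of the 6642 genes tested 34.8% were called in this comparison and 17.1% were called lower (17.6% higher), and in 43.6% the groups did not overlap, so a call by itself was common here. The median log2 fold change of all genes was -0.00. MTRNR2L8 had 234, 253 and 186 CPM in PBS and 135, 209 and 179 CPM under arsenite. These values overlapped, and its log2 fold change of -0.26 (SE 0.14) was not called (edgeR adjusted p 0.15). MTRNR2L1 had 113, 99.6 and 76.9 CPM in PBS and 60.4, 93.0 and 54.6 CPM under arsenite, again overlapping, and its edgeR log2 fold change was -0.49 (SE 0.22, adjusted p 0.074). It was called without PBS replicate 3, at -0.68 (edgeR adjusted p 0.043), and without arsenite replicate 2, at -0.74 (edgeR adjusted p 0.013), while without other libraries it was as small as -0.24.

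Reads of such similar copies may be divided among them in counting, and the 3 genes were therefore also entered as 1 summed row. The sum was 0.0660 ± 0.0058% of counts in PBS and 0.0468 ± 0.0059% under arsenite (SD, n = 3), and its log2 fold change was -0.44 (SE 0.09, edgeR adjusted p 3.9e-05). The groups did not overlap, and the two-sided exact permutation p of the difference in share was 0.1 (0.4 adjusted over 4 comparisons). Scaled to 1000000 reads in clusters, the clusters at the 3 genes held 825 ± 76.9 reads in PBS and 466 ± 59.5 under arsenite (SD, n = 3). The 16S rRNA clusters of the mitochondrial chromosome also took a smaller share of cluster reads under arsenite, 0.384 ± 0.0768% against 0.707 ± 0.185% in PBS (SD, n = 3), and their part in the lower level of the nuclear copies was not tested. A lower count with the antibody cannot be told apart from less RNA in the cell.

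None of the 3 genes passed the threshold under tunicamycin. MTRNR2L12 had 331, 283 and 270 CPM in DMSO, 285, 428 and 343 CPM at TM 1 h and 378, 270 and 399 CPM at TM 4 h. The groups overlapped at both times. Its log2 fold changes were 0.32 (SE 0.11) at 1 h and 0.28 (SE 0.11) at 4 h, with edgeR adjusted p-values of 0.26 and 0.13. MTRNR2L1 had 102, 93.7 and 99.4 CPM in DMSO, 83.3, 153 and 159 CPM at TM 1 h and 138, 75.7 and 164 CPM at TM 4 h. One library in each TM group lay below all DMSO libraries and the others above them. Its log2 fold changes were 0.56 (SE 0.18, edgeR adjusted p 0.16) and 0.41 (SE 0.16, edgeR adjusted p 0.15). Against DMSO 0.551% of 8343 genes were called at 1 h (0.144% higher, 0.408% lower) and 5.11% at 4 h (2.79% higher, 2.31% lower), and groups did not overlap in 15.3% and 20.6%. Both genes were called at 4 h once TM 4 h replicate 2 was left out, at 0.42 for MTRNR2L12 (edgeR adjusted p 0.0077) and 0.64 for MTRNR2L1 (edgeR adjusted p 0.0048). Without TM 4 h replicate 3 they fell to 0.13 (edgeR adjusted p 0.68) and 0.040 (edgeR adjusted p 0.95). In replicates 1 and 2 alone, which are 1 library set, they were 0.076 (edgeR adjusted p 0.89) and 0.071 (edgeR adjusted p 0.94).

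MTRNR2L8 had 267, 267 and 256 CPM in DMSO, 224, 241 and 231 CPM at TM 1 h and 260, 215 and 311 CPM at TM 4 h. All TM 1 h values lay below all DMSO values, a separation that 15.3% of genes showed in one direction or the other, and the log2 fold change was -0.17 (SE 0.12, edgeR adjusted p 0.70). At 4 h it was 0.02 (SE 0.10, edgeR adjusted p 0.96). Both TM comparisons use the same DMSO libraries. The direct comparison of TM 4 h with TM 1 h, in which 11.6% of genes were called (5.6% higher, 5.99% lower) and 26.8% had groups that did not overlap, gave log2 fold changes of -0.05 (SE 0.11) for MTRNR2L12, 0.19 (SE 0.11) for MTRNR2L8 and -0.16 (SE 0.17) for MTRNR2L1, with edgeR adjusted p-values of 0.85, 0.34 and 0.61. DMSO libraries had a summed share of 0.0656 ± 0.0039%, TM 1 h libraries 0.0716 ± 0.0116% and TM 4 h libraries 0.0737 ± 0.0160% (SD, n = 3). The exact permutation p was 0.6 for TM 1 h and 0.5 for TM 4 h against DMSO.

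The changes under arsenite and at TM 4 h, each against its own control, differed for 2 of the 3 genes. The difference on the log2 scale was -0.83 (SE 0.16, edgeR adjusted p 8.6e-05) for MTRNR2L12 and -0.90 (SE 0.29, edgeR adjusted p 0.022) for MTRNR2L1. For MTRNR2L8 it was -0.29 (SE 0.19, edgeR adjusted p 0.29). Of the 7796 genes in this fit 18.3% were called, 8.57% with a positive and 9.74% with a negative difference. MTRNR2L1 lost its call under DESeq2 and with robust variance moderation. It also lost it without PBS replicate 1, arsenite replicate 3 or TM 4 h replicate 3, where the difference was -0.67, -0.65 and -0.53. The stresses belong to different library sets, so stress and set are separated only through the controls.

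**Figure D3:**
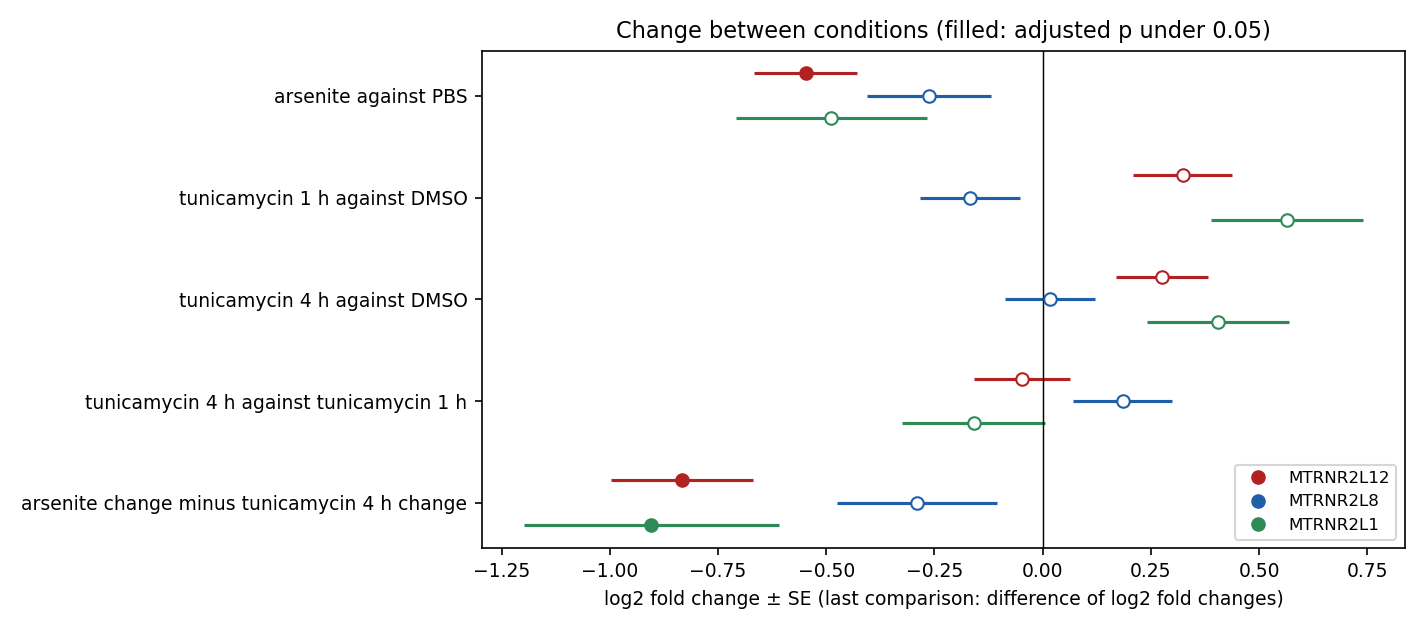
Log2 fold change with its SE from edgeR for each gene in 5 comparisons of anti-IGF2BP3 libraries; the bottom comparison is the difference between the arsenite and TM 4 h changes, and filled points have an adjusted p under 0.05. MTRNR2L12 is filled for arsenite at -0.55 and for the difference at -0.83, and MTRNR2L1 for the difference at -0.90.

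In order of mean level, MTRNR2L12 stood at 352 ± 71.8 CPM at TM 1 h, 349 ± 69.2 at TM 4 h, 339 ± 19.0 in PBS, 295 ± 32.2 in DMSO and 224 ± 7.91 under arsenite (SD, n = 3). The values of neighbours in this order overlapped, except those of DMSO and arsenite. MTRNR2L8 ran from 263 ± 6.52 in DMSO through 262 ± 47.5 at TM 4 h, 232 ± 8.59 at TM 1 h and 224 ± 34.5 in PBS to 174 ± 36.9 under arsenite. MTRNR2L1 ran from 132 ± 42.0 at TM 1 h through 126 ± 45.5 at TM 4 h, 98.2 ± 4.06 in DMSO and 96.6 ± 18.4 in PBS to 69.3 ± 20.7 under arsenite. For MTRNR2L8 and MTRNR2L1 the values of all neighbours overlapped. All 3 genes were lowest under arsenite. PBS and arsenite are in another set than the other groups, which no test here separates from condition. Over the 15 anti-IGF2BP3 libraries the log2 CPM of the genes correlated with Pearson's r of 0.68 for MTRNR2L12 and MTRNR2L8, 0.82 for MTRNR2L12 and MTRNR2L1 and 0.74 for MTRNR2L8 and MTRNR2L1. Among 3335 other genes that averaged 50 counts or more, the most alike in pattern to the sum were ENSG00000129187_14 (r = 0.89) and ENSG00000180628_15 (r = 0.87), and 39 had r above 0.8. These values share library depth and condition and are descriptions.

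On average over the 15 libraries, T-to-C events took a larger share at the 3 genes than at other clusters. Conversion events made up 10.1 ± 1.86% of all conversion and non-conversion events in their clusters and 8.10 ± 0.421% in all other clusters (SD, n = 15 libraries). The mean difference within a library was 2.04 ± 1.83 percentage points, positive in 11 of 15 libraries, with a two-sided exact sign-flip permutation p of 0.0016. It was not alike in the library sets. The mean was 3.26 points in the set of DMSO and TM replicates 1 and 2 (6 of 6 libraries higher), 1.60 points in the PBS and arsenite set (4 of 6) and 0.484 points in the set of replicate 3 (1 of 3). The libraries without a higher share were arsenite replicates 2 and 3, TM 1 h replicate 3 and TM 4 h replicate 3. In TM 4 h replicate 3 the long cluster that crosses the 5′ end of MTRNR2L8 held 474 reads with a conversion share of 3.28%. With clusters wholly inside the genes, which leaves that cluster out, this library had 8.67% against 7.66% in other clusters, the set of replicate 3 had a mean of 1.08 points (2 of 3 higher), and all libraries together had 2.16 ± 1.68 points (12 of 15 higher, two-sided exact sign-flip permutation p 0.00098). By gene the share was 9.86 ± 1.77% for MTRNR2L12, 10.9 ± 2.43% for MTRNR2L8 and 9.35 ± 3.29% for MTRNR2L1. The 16S rRNA clusters stood lower, at 6.45 ± 1.06%, and were above the nuclear copies in 1 of 15 libraries. With events pooled over libraries, the share was 8.49% in the 63 clusters with no difference from the mitochondrial sequence. It was 9.71% with 1 difference, 10.6% with 2 and 7.56% with 3 or more. The class with 3 or more includes the long MTRNR2L8 cluster at 3.28%. In that class the 10 clusters at MTRNR2L12 had 10.2% and the 3 at MTRNR2L1 had 18.0%. Where the nuclear copy has T and the mitochondrial sequence C, a mitochondrial read also scores as T-to-C. Such reads cannot be told apart from conversions here, and their part in the difference was not tested. A cluster needed conversions to be called, so these shares describe called clusters.

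**Figure D4:**
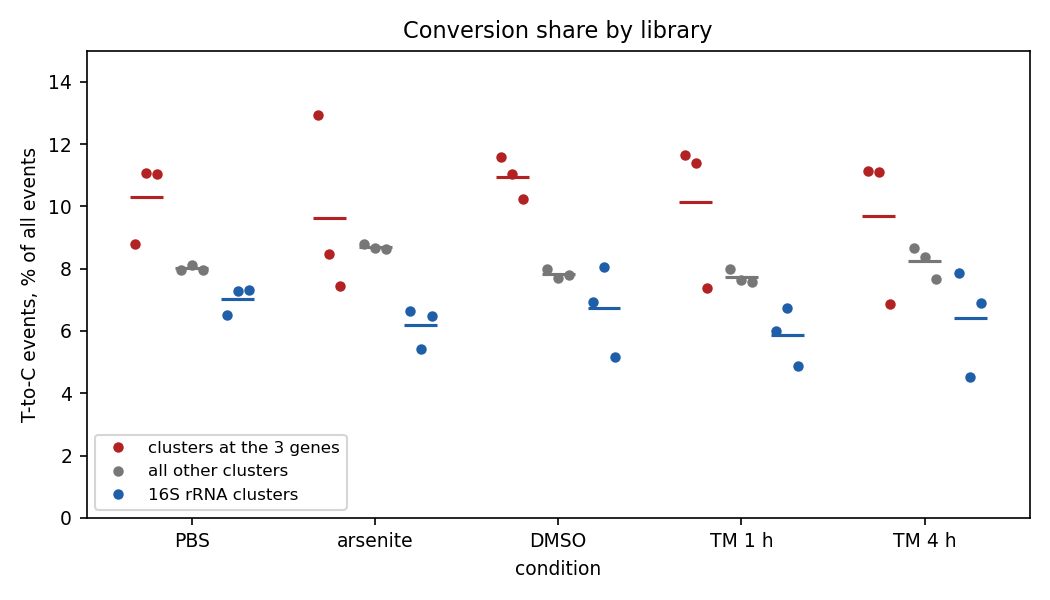
T-to-C events as a percentage of all conversion and non-conversion events, by condition, for clusters at the 3 genes, all other clusters and mitochondrial 16S rRNA clusters; each point is an anti-IGF2BP3 library and lines are means of 3. The points of the 3 genes average 10.1%, those of other clusters 8.10% and those of 16S rRNA 6.45%.

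Between conditions the conversion share of the 3 genes did not separate. PBS libraries had 10.3 ± 1.30% and arsenite libraries 9.61 ± 2.92% (SD, n = 3). The DMSO libraries had 11.6, 11.1 and 10.2%, and the means were 10.1 ± 2.40% at TM 1 h and 9.70 ± 2.45% at TM 4 h (SD, n = 3). The exact permutation p-values were 0.8 for arsenite against PBS, and 0.9 for TM 1 h and 0.7 for TM 4 h against DMSO (0.9 after adjustment over 4 comparisons), and groups overlapped in each. In letters, the 57 distinct cluster sequences of 30 to 60 bases at the genes held 34.0 ± 8.02% A and 24.0 ± 4.73% T, where the 207130 sequences of that length from all clusters held 25.4 ± 8.17% A and 32.0 ± 8.88% T (SD over sequences). The 37 sequences of 16S rRNA were alike, with 33.8 ± 8.37% A and 25.7 ± 5.36% T. The motif CAT, searched on the transcribed strand only, was in 56.1% of the sequences at the genes, 45.9% of those of 16S rRNA and 67.3% of all. The sequences at the genes overlap one another and are not independent.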

How the data were processed

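The deposited gene table holds raw whole-number counts for 20 libraries, and the deposited cluster lists, 1 for each library, give positions, sequences, read counts and the numbers of events with and without conversion, per the file headers. The submitters' processing notes name bcl2fastq 2.20.0.422, UMI-tools 1.1.1, Trimmomatic 0.30, Bowtie 0.12.7 and featureCounts 2.0.1, with GRCh38.p13 and hg38 and no order. How reads matching several places were counted and which program called the clusters are not given in the sources used here. Count columns were matched to samples through the library names, and 0 stayed unmatched.

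The genes were found by identifier. Members and gene lists were chosen with earlier results of these data known. Genes were tested over the whole table with edgeR 4.0.16 in R 4.3.3 (filterByExpr, TMM, quasi-likelihood, two-sided, Benjamini-Hochberg, threshold 0.05), in fits of the PBS and arsenite libraries, of the DMSO and TM libraries, and of DMSO, TM 4 h, PBS and arsenite together. All 3 genes passed the filter in each. The SE is the log2 fold change over the root of F. DESeq2 1.42.0 was an alternative. On simulated data with 200 genes changed 2-fold, 57.5% were recovered for arsenite (6393 genes) and 67.5% for TM 4 h (8153 genes), with 6 and 9 false calls. The spread between simulated libraries was set the same for all genes and not estimated from these data. The changes of the 3 genes were smaller than 2-fold, so these rates do not give the sensitivity for them. Clusters were assigned by 1 shared base on the gene's strand. That strand was the one with the most cluster reads at the gene, and upstream, downstream and 5′ follow it. The mitochondrial sequence was assembled from cluster sequences, which cover 1518 of the 1559 bases of the 16S rRNA gene, and compared by edit distance. Some stretches of MTRNR2L8 and MTRNR2L1 are not reported here. The genes to be named were the 3 genes, other MTRNR2L genes, mitochondrially encoded genes, partners of humanin and the genes most alike in pattern. MTRNR2L2 was not on that list and was added after its values were seen. The RefSeq gene list used for positions holds 0 Ensembl identifiers and the count table holds no gene names. Mitochondrial protein genes, humanin partners and markers were therefore not analysed here. Same-numbered libraries did not deviate together.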

Additional observations from a re-analysis of the deposited data

Results flagged for a closer look

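A test of the difference between the response to arsenite and the response to TM 4 h passed for MTRNR2L12, at -0.83 on the log2 scale (edgeR adjusted p 8.6e-05), and for MTRNR2L1, at -0.90 (edgeR adjusted p 0.022). For MTRNR2L12 its 18 own alternatives gave adjusted p-values from 7.8e-07 to 0.0022, and for MTRNR2L1 from 0.00082 to 0.24, with 13 of 18 under the threshold. Of the 7796 genes in this fit 18.3% were called, 9.74% with a negative difference, so a call was common. MTRNR2L12 was lower in all 3 arsenite libraries than in all 3 PBS libraries and higher in 2 of 3 TM 4 h libraries than in every DMSO library. Arsenite and PBS groups did not overlap in 43.6% of the 6642 genes tested there.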

How the results depend on the processing

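The fall of MTRNR2L12 under arsenite kept its direction and its call in all 12 alternatives that fit this gene by itself, between -0.58 and -0.51 on the log2 scale, and so did its difference between arsenite and TM 4 h in all 18, between -0.96 and -0.69. Entering the 3 genes as 1 row gave -0.44 under arsenite (edgeR adjusted p 3.9e-05), a call that MTRNR2L8 and MTRNR2L1 lacked on their own, and -0.63 for the difference between stresses (edgeR adjusted p 0.00060), which MTRNR2L8 lacked. The summed row was 0.17 at TM 1 h, where MTRNR2L8 alone was negative, and 0.0034 for TM 4 h against TM 1 h, where MTRNR2L12 and MTRNR2L1 were negative. The difference between stresses for MTRNR2L1 was -0.83 under DESeq2 (adjusted p 0.13) and -0.90 with robust moderation in edgeR (adjusted p 0.076). MTRNR2L8 at TM 4 h against DMSO turned to -0.0034 under DESeq2, -0.018 with no filter on low counts and -0.19 in replicates 1 and 2 alone, and against TM 1 h to -0.017 in replicates 1 and 2 alone. The cause of these was not tested.

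With 1 library left out, MTRNR2L1 ran from -0.74 to -0.24 under arsenite, from 0.040 to 0.64 at TM 4 h against DMSO, from -0.52 to 0.076 for TM 4 h against TM 1 h and from -1.14 to -0.53 for the difference between stresses. MTRNR2L12 ran from 0.13 to 0.42 at TM 4 h against DMSO and from -0.19 to 0.092 for TM 4 h against TM 1 h, and from 0.19 (without TM 1 h replicate 2) to 0.39 at TM 1 h against DMSO. MTRNR2L8 ran from -0.40 (without PBS replicate 3) to -0.16 (without arsenite replicate 1) under arsenite, from -0.16 to 0.13 at TM 4 h against DMSO, and, with the end nearest 0 reached without TM 4 h replicate 3 in each, from 0.0030 to 0.30 for TM 4 h against TM 1 h and from -0.40 to -0.10 for the difference between stresses. The summed share ran from -0.0047 to 0.0110 percentage points for TM 4 h against TM 1 h, from 0.00064 (without TM 1 h replicate 2) to 0.0121 at TM 1 h against DMSO and from 0.0013 (without TM 4 h replicate 3) to 0.0169 at TM 4 h against DMSO. The ratio of IgG to anti-IGF2BP3 shares with the PBS and arsenite IgG names exchanged, 29.3 for PBS and 23.5 for arsenite, was chosen after seeing the data.

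The replicate block changed no call. Under it MTRNR2L12 fell by 0.57 under arsenite (edgeR adjusted p 0.00014), and the correlation of same-numbered libraries was at most 0.015, so the numbers were not taken as pairs. The count of genes called moved by over 1.5 times under DESeq2, from 2310 to 1233 for arsenite, from 46 to 6 at TM 1 h, from 426 to 152 at TM 4 h, from 967 to 491 between TM times and from 1427 to 854 between stresses. It was 1380 for arsenite with a mean count of at least 50, and in replicates 1 and 2 alone 16, 129 and 488 for the TM comparisons. It was 23 at TM 1 h without TM 1 h replicate 1, 17 without TM 1 h replicate 2 and 13 without DMSO replicate 3, 178 at TM 4 h without DMSO replicate 3, where leaving out TM 4 h replicate 3 gave 247, and 523 between TM times without TM 1 h replicate 3. The share without mitochondrially encoded genes was not run, since the files do not name them. IgG totals of 5981 to 17503 counts limit the IgG levels, down to 5 counts for MTRNR2L1 in DMSO.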
